A study of Mus musculus with 6 samples.

Results

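Mmp12 and Mmp13 are genes of secreted matrix metalloproteinases (MMPs), and they are described here across 6 bone marrow libraries of mice with acute myeloid leukemia. They are 2 of the 9295 genes of the deposited table (gene IDs 17381 and 17386), matched by symbol, and were chosen by their difference in read counts between the KO and Con libraries. Of the 6 libraries, 3 are labelled KO, with the genotype PAPOLA KO, and 3 are labelled Con, with the genotype PAPOLA flox/flox, in which the gene is flanked by recombination sites. Papola encodes the canonical nuclear poly(A) polymerase, and the study set out to learn what it does in this leukemia. The sources used here name no Cre driver, no agent behind the leukemia, and no strain, age or sex of the animals, and the labels call the cell type leukemia without naming a sort of cells. Nothing in the labels ties the 3 libraries of each kind to different animals, so the spread between them may be technical, and p-values measure that spread alone.

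MMPs are zinc-dependent endopeptidases that cut proteins of the extracellular matrix. They are made as inactive proenzymes, become active when the propeptide is removed, and are held in check by tissue inhibitors (TIMPs). Mmp12 encodes macrophage metalloelastase, best known as a product of macrophages that degrades elastin. Mmp13 encodes a collagenase that opens the triple helix of fibrillar collagen, and in mouse skeleton it is known from osteoblasts and from cartilage cells at the growth plate.

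The gene pair lies side by side in the MMP cluster of mouse chromosome 9. The stretches before their starts are shown because both genes were lower in the same libraries while another gene of that cluster, Mmp8, was higher. Mmp10 of that cluster was also lower (log2 fold change -6.39), and its stretch is not shown here. Stretches picked by direction of change cannot show what sets these genes apart. The sequences are RefSeq's for build GRCm38.p6, plus strand, 250 bases ending at the base before the annotated start. Mmp12 has 2 annotated starts, and the second is the start of its longest protein-coding transcript in the GENCODE M21 annotation. Capitals mark any of 4 motifs, searched on both strands: TGACTCA or TGAGTCA for AP-1, AACCACA for RUNX factors, AGGAAG for ETS factors and TATAAA for the TATA box.
Mmp13, chr9:7272264-7272513: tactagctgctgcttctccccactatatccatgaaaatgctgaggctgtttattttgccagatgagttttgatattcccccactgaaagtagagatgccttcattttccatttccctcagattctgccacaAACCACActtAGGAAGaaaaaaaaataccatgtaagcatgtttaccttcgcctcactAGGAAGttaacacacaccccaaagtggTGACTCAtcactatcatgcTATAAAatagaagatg
Mmp12, second start, chr9:7347124-7347373: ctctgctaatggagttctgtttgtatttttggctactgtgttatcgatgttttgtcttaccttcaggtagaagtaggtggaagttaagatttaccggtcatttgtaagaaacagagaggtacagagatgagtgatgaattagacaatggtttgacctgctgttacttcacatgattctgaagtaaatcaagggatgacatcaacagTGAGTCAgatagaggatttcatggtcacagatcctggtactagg
Mmp12, first start, chr9:7344147-7344396: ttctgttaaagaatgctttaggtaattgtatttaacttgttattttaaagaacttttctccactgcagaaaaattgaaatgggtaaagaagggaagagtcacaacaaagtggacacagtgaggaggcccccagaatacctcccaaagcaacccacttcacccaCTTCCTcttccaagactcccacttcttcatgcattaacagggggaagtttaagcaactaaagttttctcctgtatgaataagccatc
Mmp8, chr9:7558179-7558428: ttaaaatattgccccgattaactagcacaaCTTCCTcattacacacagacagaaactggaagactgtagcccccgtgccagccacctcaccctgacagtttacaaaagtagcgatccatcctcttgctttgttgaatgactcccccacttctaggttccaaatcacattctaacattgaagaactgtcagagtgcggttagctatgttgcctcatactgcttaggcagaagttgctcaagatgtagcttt

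The Mmp13 stretch held an AP-1 match 35 to 29 bases before the start, a RUNX match 119 to 113 bases before it, ETS matches at 109 to 104 and at 62 to 57 bases, and a TATA box match at 16 to 11 bases. The stretch before the second Mmp12 start held an AP-1 match 44 to 38 bases before it. The stretches before the first Mmp12 start and before Mmp8 each held an ETS match on the other strand, at 87 to 82 and at 220 to 215 bases. None of the matches overlapped another. Over the 32851 such stretches of all genes, 4.46% held the AP-1 letters, 4.4% the RUNX letters, 29.5% the ETS letters and 12.4% the TATA box letters. A match is a description of the letters in these windows, and binding was not measured.

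Counts summed to 8875022 to 9768143 per KO library and to 11253932 to 11436216 per Con library. Papola itself had 2928, 2929 and 2440 counts in KO replicates 1, 2 and 3, and 3751, 3779 and 3642 counts in Con replicates 1, 2 and 3, so its per-gene count does not check the labels, and directions below are those of the libraries as labelled. After scaling by trimmed means (TMM), Papola averaged 339 ± 23.8 CPM (counts per 1000000 counts of the scaled library) in KO and 291 ± 6.42 CPM in Con (SD, n = 3 each). Con replicates 2 and 3 were closer to each other than any other pair of one group, with a chi-square per degree of freedom of 1.7 against 18.4 to 24.6 for the others, but differed by more than counting noise. The groups differed in most genes: edgeR's quasi-likelihood test with Benjamini-Hochberg adjustment called 6854 of 8358 tested genes (82%) at an adjusted p of 0.05, 3310 of them higher in KO (39.6%) and 3544 lower (42.4%). Scaled by library size alone, the split was 2488 higher and 4476 lower, and the median log2 fold change of all genes moved by -0.36.

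Mmp12 was near the detection floor in the libraries labelled KO and one of the most abundant messenger RNAs in those labelled Con. It had 20, 11 and 6 counts in KO replicates 1, 2 and 3, against 85367, 117201 and 115018 counts in Con replicates 1, 2 and 3. Scaled, these were 2.34, 1.36 and 0.772 CPM in KO, against 6467, 9210 and 9198 CPM in Con. The groups were far apart: the lowest Con library stood 2767-fold above the highest KO library. The mean was 1.49 ± 0.791 CPM in KO and 8292 ± 1580 CPM in Con (SD, n = 3 each), and the log2 fold change was -12.41 (SE 0.31). From the summed counts, 37 in KO and 317586 in Con, Con stood 5458-fold above KO, with an exact 95% interval of 3959 to 7751 that covers counting error only. Mmp12 took 0.000205%, 0.000122% and 6.76e-05% of counts in the KO libraries, against 0.756%, 1.02% and 1.02% in the Con libraries. Only 7 to 8 genes per Con library were at its count or above, itself included, while in the KO libraries its rank by count was 7465 to 8113.

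Mmp13 was also lower in every KO library, but stayed well measured there. It had 921, 591 and 594 counts in KO replicates 1, 2 and 3, against 14466, 18018 and 18038 counts in Con replicates 1, 2 and 3. The scaled levels were 108, 72.9 and 76.4 CPM in KO, against 1096, 1416 and 1443 CPM in Con. Here too the groups did not overlap, with the lowest Con library 10.2-fold above the highest KO library. The mean was 85.7 ± 19.1 CPM in KO and 1318 ± 193 CPM in Con (SD, n = 3 each), and the log2 fold change was -3.94 (SE 0.18). By rank of count Mmp13 was between 1868 and 2642 in the KO libraries and between 58 and 78 in the Con libraries.

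**Figure D1:**
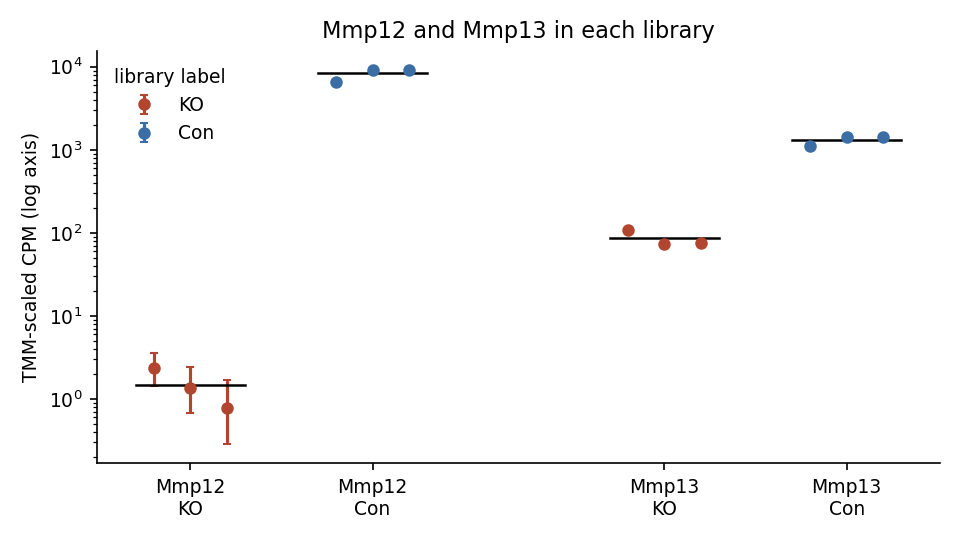
TMM-scaled CPM of Mmp12 and Mmp13 on a log axis, 1 point per library (replicates 1, 2 and 3 from left to right), with bars for the exact 95% counting interval and a black line at the group mean. Mmp12 sits at 0.772 to 2.34 CPM in KO and 6467 to 9210 CPM in Con, and Mmp13 at 72.9 to 108 CPM in KO and 1096 to 1443 CPM in Con.

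Both genes were chosen for this difference, so their fold changes are descriptions with no test. In all, 84.6% of tested genes had groups that did not overlap in CPM, 44% with KO below Con and 40.5% with KO above Con, so the lack of overlap alone does not set these genes apart. Ordered from the lowest log2 fold change, Mmp12 was the second of 8358 genes, between Tph1, tryptophan hydroxylase (-13.64, with no count in any KO library, so that this fitted value depends on the prior count), and Arg1, arginase (-11.25). Mmp13 was the 275th, between Prune2 (-3.96) and Scn3a (-3.94). In bulk RNA, fewer cells of a type and less RNA per cell cannot be told apart.

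The order of the pair turned over between the groups. Per kilobase of exon, so that genes can be compared, Mmp12 averaged 0.374 ± 0.199 CPM in KO and 2082 ± 397 CPM in Con, and Mmp13 averaged 32.0 ± 7.15 CPM in KO and 493 ± 72.2 CPM in Con (SD, n = 3 each). Mmp13 stood above Mmp12 by 68.6, 80.1 and 148 times in KO replicates 1, 2 and 3, whereas Mmp12 stood above Mmp13 by 3.96, 4.37 and 4.28 times in Con replicates 1, 2 and 3. The ratio was alike in the Con libraries and spread by more across the KO libraries, where Mmp12 rests on 6 to 20 counts.

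Within each group the 2 genes shared 1 end of the order of libraries. KO replicate 1 was the highest of its group for both, and Con replicate 1 the lowest of its group for both, while the other ends differed. Of all tested genes, 33.1% had KO replicate 1 highest, 40% had Con replicate 1 lowest and 12.7% had both, so these positions are common in the libraries. The coefficient of variation was 53.1% in KO and 19.1% in Con for Mmp12, and 22.3% in KO and 14.6% in Con for Mmp13. Summed levels of the macrophage marker list ran the same way among Con libraries, with 14903 CPM in Con replicate 1 against 22610 and 22089 CPM in Con replicates 2 and 3, but not among KO libraries, with 1739 CPM in KO replicate 1 and 2615 and 2612 CPM in KO replicates 2 and 3.

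The MMP signal was made up of different genes in the groups. The table held 14 genes with an MMP symbol, and their counts were 0.460% to 0.568% of each KO library and 1.00% to 1.32% of each Con library. RefSeq holds 23 such mouse genes, so shares and ranks here are among the 14 in the table. Per kilobase, Mmp12 made up 0.0088% to 0.0255% of the MMP signal in KO libraries and 67.7% to 70.6% in Con libraries. Mmp13 made up 1.30% to 1.75% in KO libraries and 16.2% to 17.1% in Con libraries. Mmp8, the collagenase of neutrophils, made up 48.3% to 50.6% in KO libraries and 9.64% to 11.3% in Con libraries, and Mmp9, the gelatinase of neutrophil granules, 44.5% to 46.8% in KO libraries and 0.156% to 0.323% in Con libraries.

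**Figure D2:**
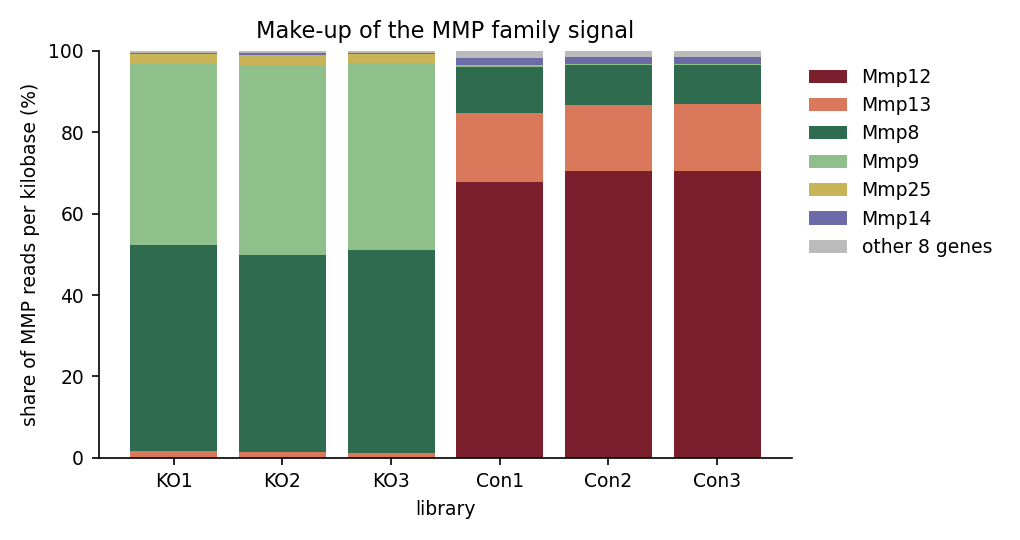
Share of the summed TMM-scaled CPM per kilobase of the 14 MMP genes, in percent, 1 bar per library with KO libraries on the left. Mmp8 and Mmp9 fill most of the KO bars, and Mmp12 fills 67.7% to 70.6% of the Con bars with Mmp13 the next.

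In the order of levels per kilobase, Mmp12 was 11th of the 14 genes in KO and 1st in Con, and Mmp13 was 4th in KO and 2nd in Con. In Con the libraries of Mmp12 (1624 to 2312 CPM per kilobase), Mmp13 (410 to 540) and Mmp8 (272 to 320) did not overlap. In KO, Mmp13 (27.3 to 40.3) lay below Mmp25 (44.1 to 55.0) and above Mmp14 (5.84 to 7.04) with no overlap. Mmp12 in KO (0.194 to 0.587) overlapped its neighbours in the order, Mmp11 and Mmp15, so its place there is not set beyond the spread.

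**Figure D3:**
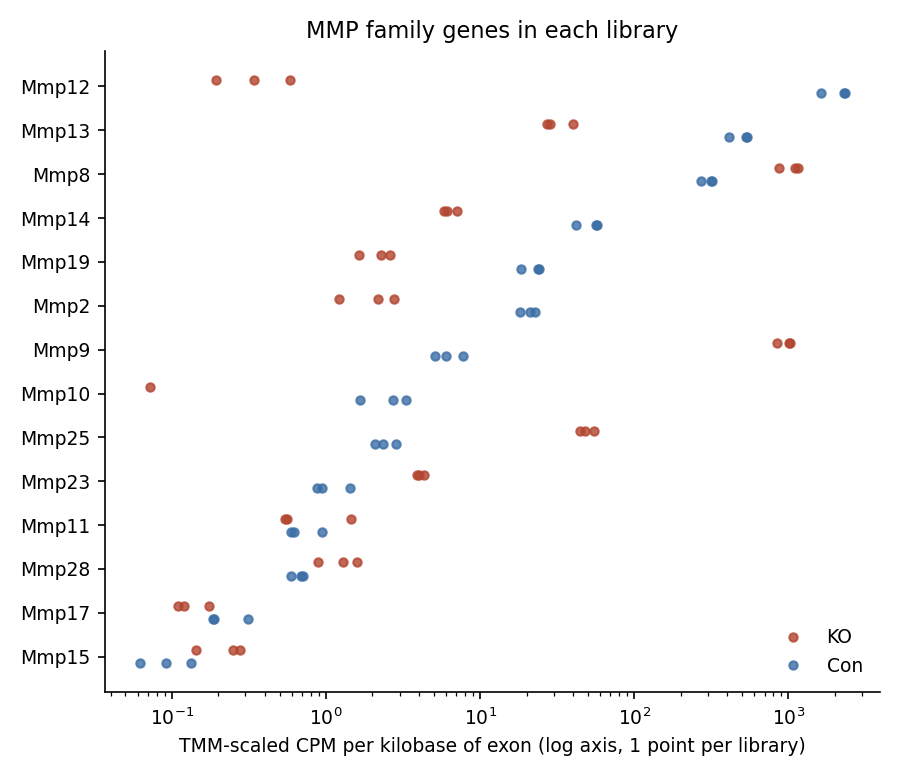
TMM-scaled CPM per kilobase of exon for the 14 MMP genes, 1 point per library on a log axis, with KO above Con for each gene and genes ordered by their Con mean. Mmp10 had no count in KO replicates 1 and 3, which a log axis cannot show. Mmp12 and Mmp13 lead in Con, and Mmp8 and Mmp9 lead in KO.

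Of the other 12 MMP genes 11 could be tested, and 4 fell, 5 rose and 2 did not pass the test, with a median log2 fold change of 0.24 against -0.06 for all tested genes. Over all tested genes 82% were called, 39.6% higher and 42.4% lower, and the share called among these MMP genes was near that. Those that fell beside Mmp12 and Mmp13 included the membrane-anchored Mmp14, which activates other MMPs at the cell surface. It had 29.4, 24.4 and 25.5 CPM in KO, against 176, 235 and 239 CPM in Con (log2 fold change -3.03, SE 0.14, edgeR adjusted p = 7.62e-08). Mmp2, a gelatinase that Mmp14 activates, averaged 6.30 ± 2.41 CPM in KO and 63.5 ± 7.18 CPM in Con (-3.32, adjusted p = 8.55e-07). Mmp19 averaged 7.51 ± 1.74 CPM in KO and 76.2 ± 11.3 CPM in Con (-3.33, adjusted p = 1.56e-07). Its counts were not whole, so reads may be split with other features. Mmp10, a stromelysin, had 0, 1 and 0 counts in KO and 38, 72 and 59 counts in Con, a level in Con 107-fold above KO with a counting interval of 19.0 to 4269 (adjusted p = 1.67e-05). Its fitted log2 fold change was -6.39, and -8.60 without KO replicate 2, which held its only KO count.

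The MMP genes that rose and were most abundant in KO were Mmp8, Mmp9 and Mmp25. Mmp9 had 3247, 2672 and 3212 CPM in KO, against 24.6, 16.3 and 19.1 CPM in Con (7.25, SE 0.19, adjusted p = 4.3e-09). Mmp25, a membrane-anchored MMP of leukocytes, averaged 222 ± 24.8 CPM in KO and 11 ± 1.79 CPM in Con (4.33, adjusted p = 1.04e-08). Mmp8 had 2818, 2108 and 2658 CPM in KO, against 659, 776 and 767 CPM in Con (1.78, SE 0.13, adjusted p = 1.09e-06). Mmp23 rose by 1.90 (adjusted p = 6.56e-05) and Mmp28 by 0.91 (adjusted p = 0.00869, or 0.0666 with library size only). Mmp28 had few counts, 41.8, 27.3 and 46.4 in KO and 29.5, 33.2 and 33.3 in Con. As with Mmp19, they were not whole, so its reads may be split. The test was not passed by Mmp17 (-0.76, adjusted p = 0.0887, but -1.10 and 0.0189 with library size only) and Mmp11 (0.24, adjusted p = 0.618), and Mmp15, at 1.15 CPM in KO and 0.491 CPM in Con, had too few counts to test. The neutrophil marker list, which includes Mmp8 and Mmp9, summed to 166923 to 191685 CPM in KO libraries and 2318 to 2502 CPM in Con libraries. All 10 of its genes rose, against 39.6% higher and 42.4% lower of all tested genes. The part of this list in these results was not tested.

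On mouse chromosome 9, 10 MMP genes follow one another with no other protein-coding gene between them in the RefSeq order for GRCm38.p6, beginning with Mmp13 and Mmp12. Values were analysed here for 4 of them, in this order: Mmp13 (log2 fold change -3.94), Mmp12 (-12.41), Mmp10 (-6.39) and Mmp8 (1.78). Genes outside the cluster went various ways. On the Mmp13 side, Dcun1d5, which acts in cullin neddylation, averaged 77.3 ± 7.95 CPM in KO and 81.6 ± 3.02 CPM in Con (-0.08, SE 0.09, adjusted p = 0.465), and Dync2h1, a dynein of cilia, was at -0.46 (adjusted p = 0.0229). The growth factor gene Pdgfd, farther out, was low and rose, with 3.31 ± 0.574 CPM in KO and 0.180 ± 0.113 CPM in Con (4.10, adjusted p = 1.06e-05). On the other side the apoptosis inhibitor genes Birc2 (0.36, adjusted p = 0.0245) and Birc3 (-0.70, adjusted p = 3.42e-05) differed in sign.

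**Figure D4:**
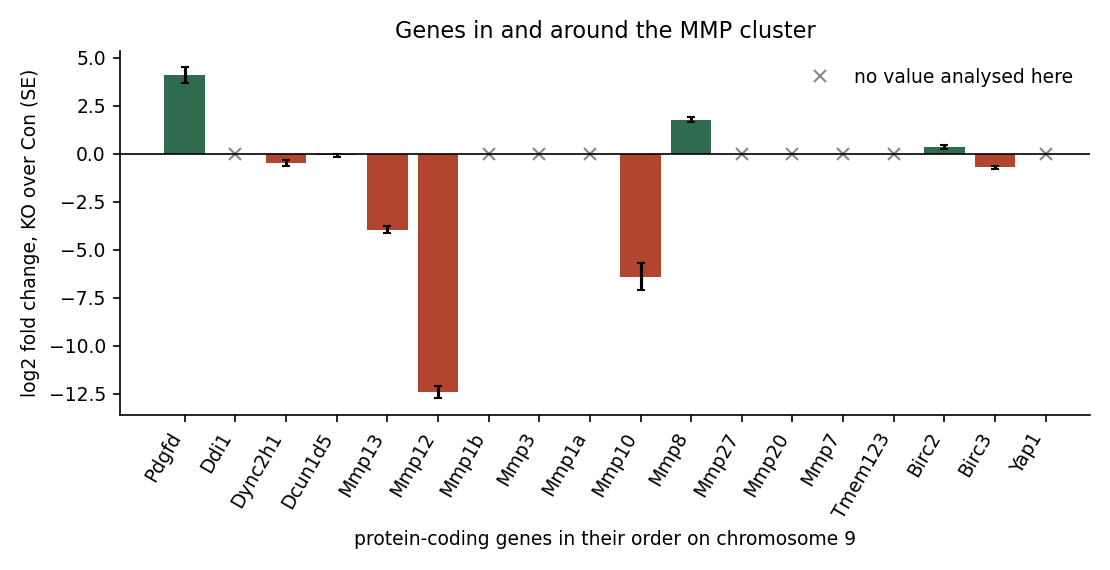
Log2 fold change of KO over Con, with SE, for protein-coding genes in their order along chromosome 9 in and around the MMP cluster, evenly spaced. Mmp12 (-12.41) and Mmp13 (-3.94) stand beside each other, Mmp8 (1.78) points the other way, and crosses mark genes with no value analysed here.

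The genes whose profile was most like that of Mmp12 were Arg1, Gpnmb, Nos2, Ccl7 and Tph1. Likeness was the root mean square distance between log2 CPM profiles over the 6 libraries, each centred on its own mean, and it was 0.94 for Arg1 and for Gpnmb, 1.15 for Nos2, 1.26 for Ccl7 and 1.52 for Tph1. Arg1 had 0.351, 0.617 and 0.515 CPM in KO, against 1076, 1279 and 1313 CPM in Con. Gpnmb, a glycoprotein of macrophage lysosomes, had 9.23, 6.54 and 9.01 CPM in KO, against 10091, 16363 and 15720 CPM in Con. Tph1 had no KO count and stood at least 1248-fold lower in KO, from a floor of 3 counts over the group. It was highest in Con replicate 1, where Mmp12 was lowest.

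Genes most like Mmp13 were closer to it than those above were to Mmp12. They included Il1rl2, the receptor for interleukin-36 (distance 0.14), Csf2rb2, a beta chain of the mouse interleukin-3 receptor (0.17), Prune2 (0.17) and Nrp2, neuropilin 2 (0.18). Il1rl2 had 12.2, 10.2 and 7.85 CPM in KO, against 134, 168 and 160 CPM in Con, and like Mmp13 was highest in replicate 1 of KO and lowest in replicate 1 of Con. The distance between Mmp12 and Mmp13 themselves was 4.21. Fold change and the order of libraries both enter the distance, so likeness in them follows from how these genes were picked. Mmp12 also lay near the end of the order of fold changes, where fewer genes are close.

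Among genes that inhibit MMPs, Timp1 went the way of Mmp12 and Mmp13 and the others did not. Of 7 listed inhibitors 4 were in the table and 3 tested. Of these 3, 2 rose and 1 fell, against 39.6% higher and 42.4% lower of all tested genes. Timp1, an inhibitor of most secreted MMPs, had 1.52, 1.48 and 1.16 CPM in KO, against 6.29, 8.33 and 8.72 CPM in Con (-2.47, SE 0.25, adjusted p = 1.15e-05). Timp2 had 191, 188 and 236 CPM in KO, against 58.9, 89.4 and 87.5 CPM in Con (1.38, SE 0.16, adjusted p = 4.12e-05). Reck, a membrane-anchored inhibitor, averaged 36.4 ± 2.30 CPM in KO and 5.04 ± 0.551 CPM in Con (2.85, adjusted p = 7.68e-08). A2m, alpha-2-macroglobulin, was not tested and had 34 counts over the KO libraries and 1 over the Con libraries.

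Of 7 tested genes for plasminogen activation and proprotein convertases, which take part in MMP activation, 4 fell and 3 rose, with a median log2 fold change of -1.59, a split near the 42.4% lower and 39.6% higher of all tested genes. Serpinb2, an inhibitor of plasminogen activators, averaged 9.35 ± 1.62 CPM in KO and 255 ± 23.0 CPM in Con (-4.76, SE 0.14, adjusted p = 6.05e-09). Furin, a convertase that cuts the propeptide of Mmp14, averaged 115 ± 17.5 CPM in KO and 739 ± 53.9 CPM in Con (-2.68, adjusted p = 7.54e-08). Serpine2, a protease inhibitor, rose by 0.93 (adjusted p = 6.23e-05), and Anxa2 by 0.41 (adjusted p = 0.00194, or 0.562 with library size only). The convertase gene Pcsk7 was at 0.32 (adjusted p = 0.0177), but at 0.0633 without KO replicate 1 and at -0.03 with library size only.

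Other proteases that degrade matrix went both ways. Of 6 tested, 3 neutrophil serine proteases (Elane, Prtn3 and Ctsg) were higher and 3 lysosomal cysteine cathepsins (Ctsb, Ctsk and Ctsl) fell, with a median of -0.55, against 39.6% higher and 42.4% lower of all tested genes. Elane, neutrophil elastase, averaged 1194 ± 268 CPM in KO and 101 ± 16.1 CPM in Con (3.57, adjusted p = 3.18e-07), and Prtn3, proteinase 3, 951 ± 286 CPM in KO and 44.8 ± 4.95 CPM in Con (4.41, adjusted p = 3.14e-07). Ctsg, cathepsin G, was at 0.60 (adjusted p = 0.0188) with groups that overlapped, and its adjusted p was 0.0573 to 0.0665 without any 1 of KO replicates 1 and 2 and Con replicates 2 and 3, and 0.304 with library size only (0.25). Ctsk, a collagen-degrading cathepsin of osteoclasts and macrophages, had 20.2, 28.4 and 22.1 CPM in KO, against 106, 206 and 210 CPM in Con (-2.89, SE 0.27, adjusted p = 9.95e-06). Ctsl and Ctsb fell, at -2.58 and -1.71 (adjusted p = 2.81e-07 and 4.97e-05).

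Genes of matrix proteins, among them substrates of these enzymes, were higher in KO for the most part. Of 21 listed, 11 were in the table and 10 tested, of which 7 were higher in KO and 3 were lower, against 39.6% higher and 42.4% lower of all tested genes, and the median was 2.86. The fibrillar collagen gene Col1a1, a target of collagenases, had 95.4, 308 and 56.9 CPM in KO, against 1.97, 2.83 and 3.36 CPM in Con (5.82, adjusted p = 5.81e-05, and 4.81 without KO replicate 2). The proteoglycan genes Bgn, biglycan, and Dcn, decorin, rose by 5.95 and 4.33 (adjusted p = 1.42e-07 and 7.7e-08), and the basement membrane collagen gene Col4a1 by 2.55 (adjusted p = 4.38e-08). Eln, elastin, the substrate that gives Mmp12 its name, was not tested, with 11, 4 and 77 counts in KO and 0, 1 and 0 counts in Con, so most of its KO counts came from KO replicate 3. Against this, Spp1, osteopontin, a secreted phosphoprotein of bone and macrophages, had 141, 163 and 98.3 CPM in KO, against 2863, 5577 and 5798 CPM in Con (-5.14, SE 0.32, adjusted p = 7.89e-07). Lamc1, a laminin chain, and Col5a1 fell, at -2.79 and -1.80 (adjusted p = 4.46e-08 and 8.55e-07). The osteoblast, cartilage and stromal markers, of which 3 of 13 were in the table (Col1a1, Runx2 and Sp7), summed to 190 to 405 CPM in KO libraries and 23.4 to 25.5 CPM in Con libraries. Mmp13 was lower in the libraries where these markers were higher, and their part in its level was not tested.

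Cytokines known to induce MMP genes were lower in KO, apart from Osm. Of 10 listed, 7 were in the table and tested, of which 6 were lower in KO and 1 was higher, against 42.4% lower and 39.6% higher of all tested genes, and the median was -4.97. Il1a, interleukin-1 alpha, had 12.4, 12.8 and 9.27 CPM in KO, against 910, 1080 and 1046 CPM in Con (-6.46, SE 0.15, adjusted p = 2.39e-09). Il4 had 1 count over the KO libraries and 263 over the Con libraries, a level in Con 167-fold above KO (counting interval 29.8 to 6630, adjusted p = 9.97e-07). Its fitted log2 fold change was -7.02, and -9.24 without KO replicate 3. Il13 averaged 0.252 ± 0.228 CPM in KO and 17.5 ± 5.42 CPM in Con (-6.08, adjusted p = 1.2e-06, and -7.06 without KO replicate 3). Il6, Csf2 and Tnf were the others that fell. Osm, oncostatin M, averaged 853 ± 217 CPM in KO and 275 ± 55.9 CPM in Con (1.64, adjusted p = 6.37e-05). Mmp12 and Mmp13 were lower in the libraries where most of these cytokines were lower, but Mmp8 (1.78), Mmp9 (7.25) and Mmp25 (4.33) were higher there. The part of the cytokines in the levels of MMP genes was not tested.

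Of 11 tested genes listed as receptors of these cytokines 5 rose, 5 fell and 1 did not pass, with a median of 0.18. This is an even split near that of all tested genes (39.6% higher and 42.4% lower). Among those that rose, Il6st was at 0.32 (adjusted p = 0.0482) with groups that overlapped. The number that rose was 4 with library size only and under some other settings. Csf2rb2 is counted among those that fell, but it is a chain of the interleukin-3 receptor, and interleukin-3 is not a listed cytokine. It had 93.6, 56.0 and 69.8 CPM in KO, against 974, 992 and 987 CPM in Con (-3.75, adjusted p = 9.58e-08). Its close copy Csf2rb, also listed, was at -2.98 (adjusted p = 1.67e-07). The counts of both were not whole, so their reads may be split. The tumor necrosis factor receptor genes parted, with Tnfrsf1b at -3.12 (adjusted p = 1.71e-08) and Tnfrsf1a at 1.36 (adjusted p = 4.23e-06). Il1r1, the interleukin-1 receptor, fell by 2.46 (adjusted p = 2.67e-08), while Il17ra rose by 2.58 and Osmr by 4.27 (adjusted p = 5.13e-07 and 3.22e-06).

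Transcription factor genes of families that act on MMP promoters went both ways. Among the 19 tested, of 22 listed, 11 were higher in KO and 8 were lower, against 39.6% higher and 42.4% lower of all tested genes, and the median was 0.68. The AP-1 genes Fos and Fosb were higher, and binding of their products to the stretches shown above was not measured. Fos had 2617, 1935 and 3467 CPM in KO, against 75.2, 63.4 and 58.1 CPM in Con (5.35, SE 0.24, adjusted p = 1.04e-07). Fosb had 282, 284 and 509 CPM in KO, against 3.56, 1.57 and 1.60 CPM in Con (7.30, adjusted p = 2.28e-07), and Jund rose by 2.00 (adjusted p = 4.72e-08). Runx2, the RUNX factor of osteoblasts, averaged 110 ± 33.6 CPM in KO and 21.5 ± 1.33 CPM in Con (2.35, adjusted p = 5.3e-06). Runx1 and Runx3 went the other way, at -0.86 and -1.12 (adjusted p = 4.57e-05 and 4.07e-05). Mitf, a factor of osteoclasts and macrophages, was at -2.02 and Batf, which pairs with Jun proteins, at -1.19 (adjusted p = 5.76e-06 and 1.54e-05). Etv4, an ETS factor, had 3 counts over the KO libraries and 202 over the Con libraries, 42.8-fold above KO in Con (counting interval 14.4 to 209, adjusted p = 5.89e-06). Its fitted log2 fold change was -5.29, and -6.15 without KO replicate 1. The other ETS genes tested parted, with Ets1 at 1.41 and Etv5 at -1.15 (adjusted p = 4.38e-06 and 0.000245).

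**Figure D5:**
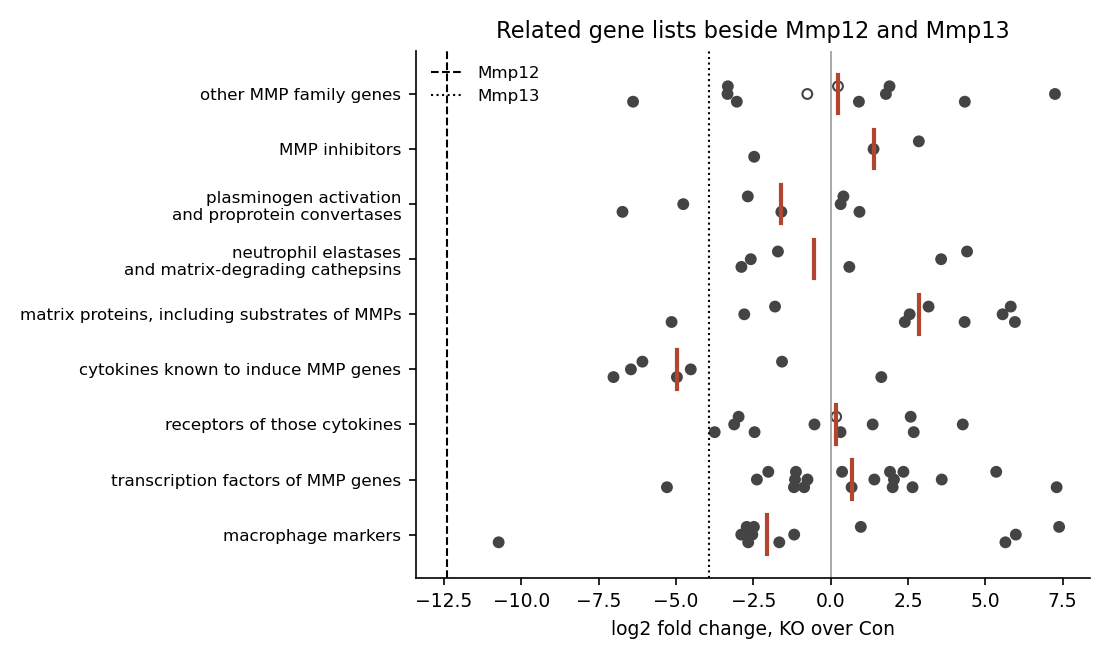
Log2 fold change of KO over Con for each tested gene of 9 lists, filled where the adjusted p passed 0.05 and open where it did not, with a red bar at each list's median. Vertical lines mark Mmp12 (-12.41) and Mmp13 (-3.94). The cytokine list has its median at -4.97 and the matrix protein list at 2.86.

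Macrophage markers moved in both directions beside Mmp12. Of 14 listed 12 were in the table, with none at 0 in either group, and 8 fell and 4 rose with a median log2 fold change of -2.07, against 42.4% lower and 39.6% higher of all tested genes. Cd68 had 122, 207 and 209 CPM in KO, against 1116, 1420 and 1449 CPM in Con (-2.89, SE 0.21, adjusted p = 2.23e-06). Adgre1, the F4/80 antigen, had 113, 171 and 163 CPM in KO, against 808, 1020 and 1006 CPM in Con (-2.67, SE 0.17, adjusted p = 7.05e-07). Lgals3, galectin 3, fell by 1.66 (adjusted p = 2.54e-06) and Gpnmb was at -10.73 (adjusted p = 6.05e-09), while the complement genes C1qa, C1qb and C1qc rose by 7.38, 5.98 and 5.65. The summed level was 1739 to 2615 CPM in KO libraries and 14903 to 22610 CPM in Con libraries, or 1730 to 2608 CPM in KO libraries and 4812 to 6368 CPM in Con libraries without Gpnmb. In size of log2 fold change, Mmp12 was beyond all 12 of these genes, and Mmp13 was beyond each that fell other than Gpnmb; these differences in size were not tested.

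Of 10 osteoclast markers 4 were in the table, and 3 fell (Atp6v0d2, Ctsk and Dcstamp) and 1 rose (Nfatc1), with summed levels of 169 to 193 CPM in KO libraries and 277 to 394 CPM in Con libraries. Without Nfatc1 the sum was 27.6 to 37.5 CPM in KO libraries and 202 to 327 CPM in Con libraries. All 7 endothelial markers were tested, 5 rose and 2 (Pecam1 and Vwf) fell, and their sum was 225 to 281 CPM in KO libraries and 547 to 577 CPM in Con libraries. Without Pecam1 it was 155 to 187 CPM in KO libraries and 171 to 209 CPM in Con libraries, which overlap. Most of that Con sum was Vwf, with 161, 196 and 196 CPM in Con replicates 1, 2 and 3. In KO replicates 1, 2 and 3 Vwf had 15.7, 27.0 and 24.8 CPM. The 5 markers that rose each had KO above Con with no overlap. All 7 erythroid markers rose, with sums of 14093 to 20289 CPM in KO libraries and 22.1 to 41.3 CPM in Con libraries. These marker counts stand beside 39.6% higher and 42.4% lower of all tested genes. The part of these cell types in the levels of Mmp12 and Mmp13 was not tested.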

How the data were processed

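Per the labels' protocols, bone marrow RNA was taken up in TRIzol and the sequencing libraries were built with a kit from BGI. The deposited table holds expected counts of reads per gene, 1 column per library, not scaled, per the file headers. Fractional counts occur in 1449 of 9295 genes, so reads can be split between similar genes, and counts were rounded before testing. The submitters' processing notes list the human build GRCh38 although gene IDs are mouse (9257 are in the mouse RefSeq gene table), so no coordinates are taken from the files, and those of the promoter stretches are RefSeq's for GRCm38.p6. Which aligner and counter were used is not stated in those sources. All columns were matched by name (0 unused).

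Genes were compared with edgeR's quasi-likelihood test (version 4.0.16, R 4.3.3; robust, two-sided, no covariate), after filterByExpr by group and TMM scaling, over 8358 genes, with Benjamini-Hochberg adjustment and a threshold of 0.05. SE is the absolute log2 fold change over the square root of F. Fold changes are log2, KO over Con. TMM factors (0.876 to 1.17) scaled the library totals behind each CPM, and log2 CPM profiles had a prior count of 2. Exon lengths are the union of protein-coding exons in GENCODE M21 basic. The 95% intervals and the floor of 3 counts hold counting error of reads alone and no variation between libraries. Reads that carry no molecular identifier need not be separate molecules, so even the counting error may be understated. Libraries held 8875022 to 11436216 counts, and a value under 1 CPM rests on few of them.

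Alternatives were DESeq2 1.42.0, limma-voom (limma 3.58.1), other scalings, no filter or a stricter one (5 CPM in 3 libraries), each library left out, Con replicates 2 and 3 summed, and the replicate number as a block. The members and lists were chosen with earlier results of these data known. Named genes are Mmp12, Mmp13, all other MMP genes and inhibitors in the table, the 3 genes of each other pathway list with the smallest adjusted p in each direction, the 2 most abundant genes of each marker list, and the 5 genes most like each member, of which some are not reported here. The genes next to the pair by fold or by place, and other list genes named, were added after their values were seen.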

Additional observations from a re-analysis of the deposited data

How the results depend on the processing

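Mmp12 stayed between -12.91 and -12.12 and Mmp13 between -4.30 and -3.84 on the log2 scale under the alternatives run. The lowest Mmp13 value came with library size only (-4.30), which moves all genes down. Leaving out each library in turn gave -12.91 to -12.12 for Mmp12 and -4.14 to -3.84 for Mmp13, and 6485 to 6855 changed genes. The number of other MMP genes that rose was 3 under the stricter filter, which tests fewer genes. Of the plasminogen and convertase genes only 1 rose with library size only. Signs turned for Mmp11 (-0.12 with library size only, and -0.38 to 0.49 with each library left out, the lowest without KO replicate 3) and Pcsk7 (-0.034 with library size only), and the cause was not tested. The replicate number as a block gave 6766 changed genes, -12.39 for Mmp12 and -3.95 for Mmp13, and changed no count of calls in the MMP and pathway lists. It was not run for counts of marker lists. Same-numbered libraries of the 2 groups did not deviate together (correlations of -0.0017, 0.028 and -0.0037). With so few libraries this cannot exclude pairing by number, which the labels do not state. Depth limits Mmp12 in KO, where it rests on 6 to 20 counts per library, and Mmp10, Il4, Csf2 and Etv4, with 1 to 3 counts over the group.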
